A study of Homo sapiens with 12 samples.

Results

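Romidepsin and afatinib were set against each other directly in MyLa cells, an established cell line of cutaneous T cell lymphoma (CTCL). The comparison used 6 of the 12 RNA-seq libraries of the study, 3 from cells given romidepsin at 3.2 nM and 3 from cells given afatinib dimaleate at 5.7 uM, chosen by their treatment labels. Both drugs acted for 24 h, all cultures were grown with interleukin 2 (IL-2) at 20 ng/mL, and the vehicle DMSO was brought to the same volume in every condition. The other 6 libraries, 3 with both drugs together (the combination) and 3 with DMSO alone, entered the filter on low counts and the shared estimate of spread, and their levels are given as description. The study was designed around synergy of the drug pair, and the direct contrast asks which genes separate the drugs without a fold change against DMSO. Each drug was used at 1 dose and 1 time, so differences are between these doses. MyLa is 1 line, and nothing in the labels says whether the replicates were separate cultures, so a p-value speaks to scatter among these libraries, which may be technical only.

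Romidepsin is a cyclic peptide prodrug that blocks class I histone deacetylases, the enzymes that remove acetyl groups from histone tails, and it is used in the clinic against cutaneous T cell lymphoma. Deacetylase inhibition is known to raise genes that are silent or weakly transcribed and to induce the cell cycle inhibitor CDKN1A. Afatinib binds covalently to a cysteine beside the ATP pocket of EGFR, ERBB2 and ERBB4, and the same cysteine is found in a few other kinases, among them JAK3 and the TEC family. In T cells the common gamma chain cytokines, IL-2 included, signal through JAK1 and JAK3 to the STAT transcription factors. Shortage of amino acids and protein misfolding act through another route, in which the transcription factor ATF4 raises amino acid transporters, tRNA synthetases and the factors DDIT3 and TRIB3.

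Library totals were 8972228 to 12594395 assigned reads with romidepsin and 10274256 to 12039260 with afatinib. Among T cell markers, CD3G averaged 24.6 ± 1.91 CPM (reads scaled to a common library total) with romidepsin and 57.8 ± 4.21 CPM with afatinib (SD, n = 3 each), while CD4 had at most 1 read per library. The summed level of 12 T cell markers was 120 to 132 CPM with romidepsin and 244 to 262 CPM with afatinib. The 6 myeloid markers summed to 29.3 to 36.6 CPM with romidepsin and 6.27 to 6.91 CPM with afatinib, led by CSF1R, with LYZ and FCGR3A at no more than 1 read. Fibroblast markers summed to 26.5 to 32.7 CPM with romidepsin and 97.7 to 102 CPM with afatinib, led by COL1A1 and COL3A1, with DCN and LUM at no more than 1 read. Whether other cells contributed to these levels was not tested. In bulk RNA, fewer cells of a type and less RNA per cell cannot be told apart. Keratinocyte markers summed to 199 to 206 CPM with romidepsin and 258 to 284 CPM with afatinib, led by SFN, TP63 and KRT10, with KRT1 and DSG3 at no more than 1 read, and melanocyte markers to 11.7 to 12.4 CPM with romidepsin and 1.70 to 4.24 CPM with afatinib. B cell markers summed to 5.04 to 7.30 CPM with romidepsin and 1.89 to 2.67 CPM with afatinib, with MS4A1 and CD79B at no more than 1 read. The basal keratins KRT5 and KRT14 had 126 and 39 reads in afatinib replicate 3 and 0 in the other libraries of either drug. The calls of the 301 genes named in the analysis held without that replicate, except for CCL22. Reads from mitochondrial genes made up 12.1 to 13.9% of the romidepsin libraries and 10.71 to 11.04% of the afatinib libraries.

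The drugs left MyLa cells with widely different messenger RNA. Of 16208 genes with enough reads to test, 5220 were higher with romidepsin than with afatinib (32.2%) and 5256 were lower (32.4%), at an adjusted p below 0.05 in edgeR's quasi-likelihood test. At least 2-fold higher with romidepsin were 1986 genes (12.3%), and 2221 were at least 2-fold lower (13.7%). The 3 romidepsin libraries did not overlap with the 3 afatinib libraries in 11051 genes (68.2%). For 4426 genes (27.3%) the 95% confidence interval of the ratio lay within 1.5-fold in either direction, so that those genes were alike under the drugs to that precision, including 1923 that also passed the test. Another 3229 genes were neither called nor placed within that range. With 64.6% of all genes called, a list of genes is read below against these shares, and log2 fold changes are romidepsin over afatinib throughout. Members low with afatinib and in DMSO could pass the filter on low counts only through libraries with romidepsin. The filter can therefore set part of a list's balance. The median log2 fold change over all tested genes was 0.0004, and the median of its absolute value was 0.56. The scaling of libraries assumes that most genes are balanced, so this median and the even split depend on it. With libraries scaled by total reads alone, the median was -0.083, with 4634 genes higher and 5856 lower. Reads were counted without strand, and 129 of the 301 genes named in the analysis share exon bases with another gene, DDIT3, STAT6, LIF, WARS, SQSTM1 and IFIT2 among them, and reads from the shared bases cannot be assigned to 1 of the genes. The first principal component of the 6 libraries held 82.2% of their variance and separated the drugs, and the second held 5.11%.

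**Figure D1:**
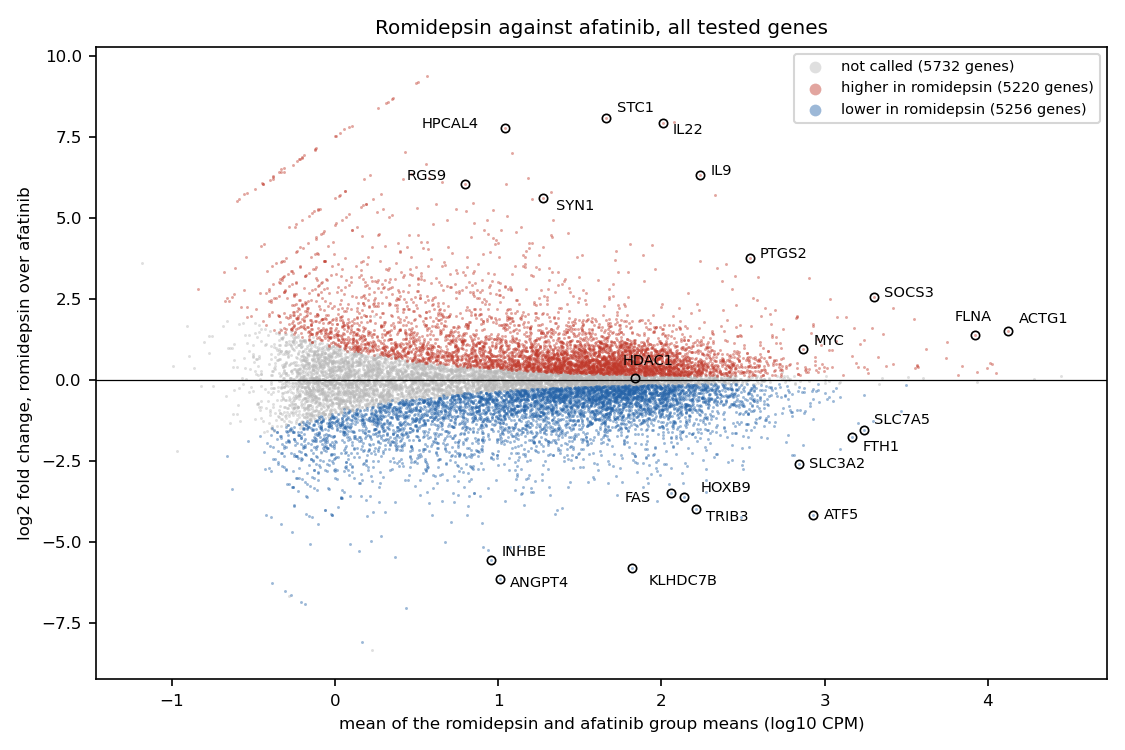
Log2 fold change of romidepsin over afatinib (y axis) against the mean of the drugs' group means (x axis, log10 CPM) for the 16208 tested genes, each a point. The 5220 genes higher with romidepsin are red, the 5256 lower ones blue and the 5732 not called grey, with STC1, IL22 and IL9 near the top and ANGPT4 and KLHDC7B near the bottom.

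**Figure D2:**
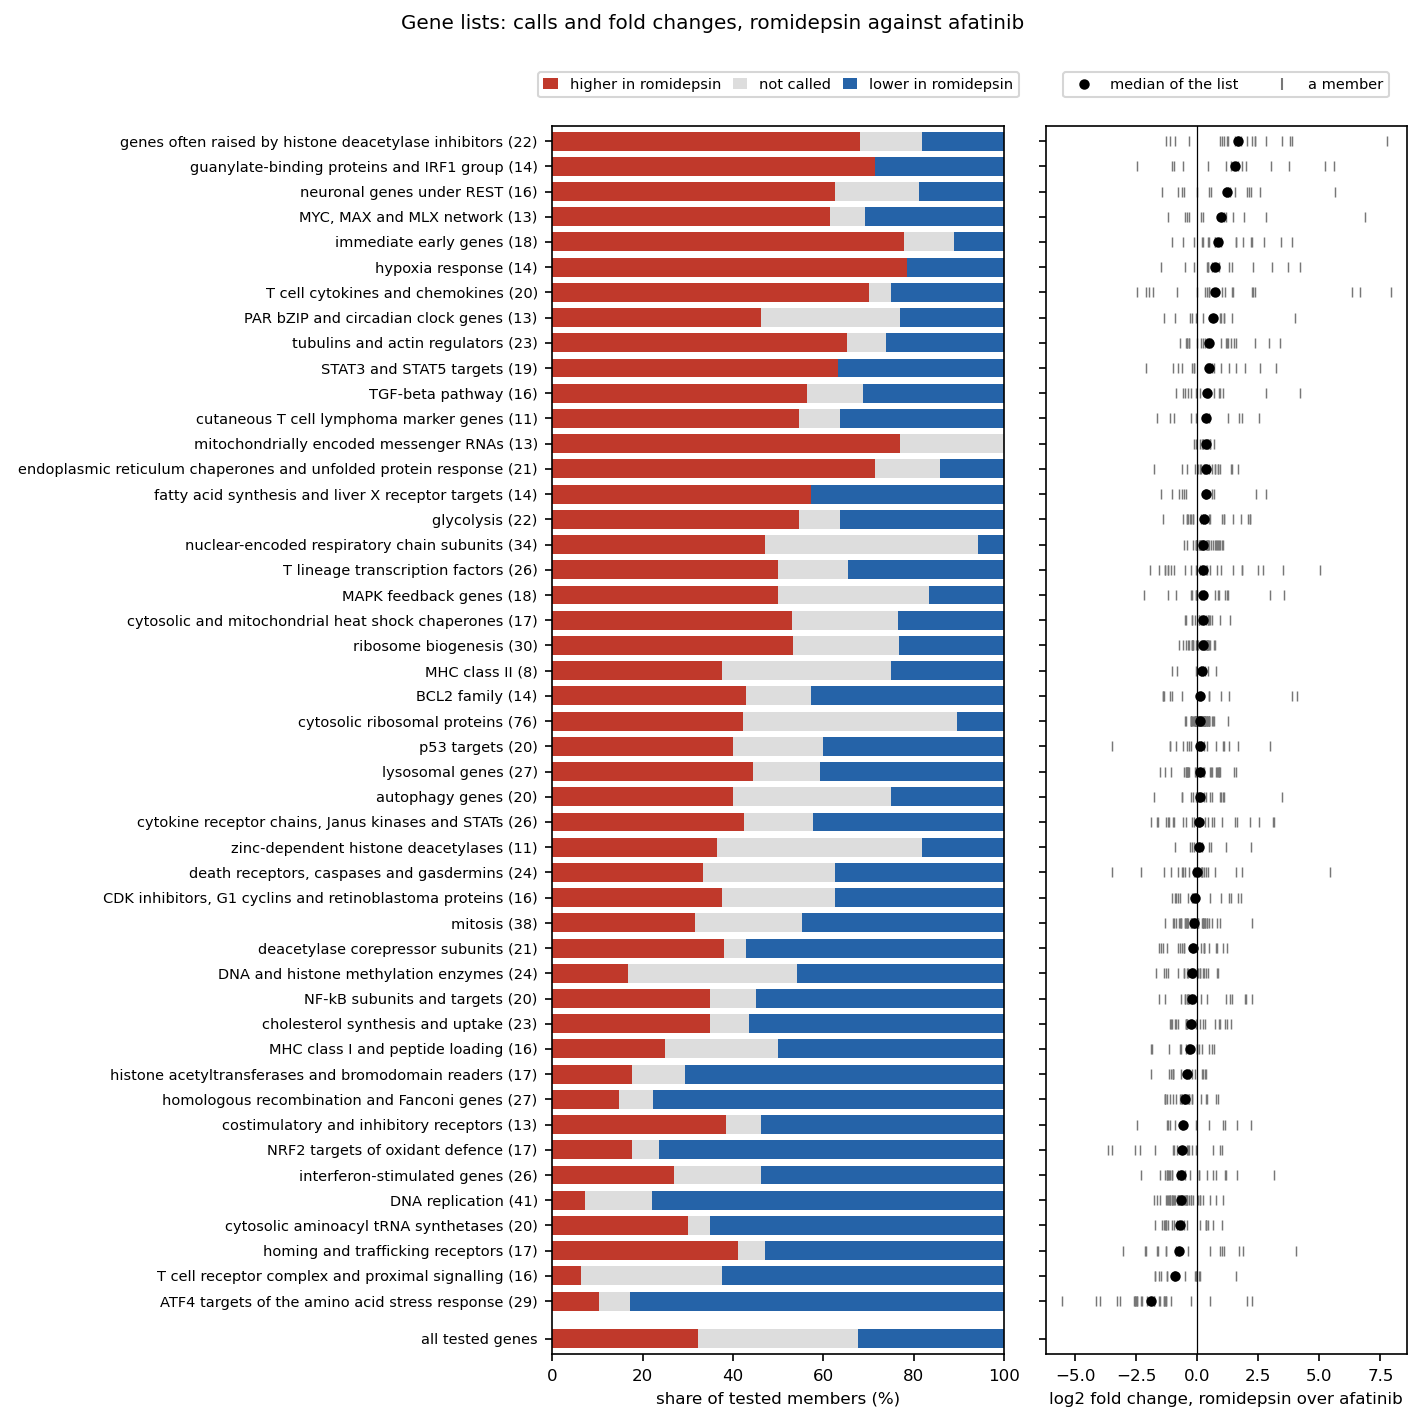
Left, share of tested members (x axis, percent, with the number tested in parentheses) that were higher with romidepsin (red), not called (grey) or lower (blue). Each gene list with at least 8 tested members is shown, with all tested genes at the foot (32.2% higher, 32.4% lower). Right, log2 fold change of romidepsin over afatinib for each member (ticks) and the list median (dots): medians run from 1.67 for genes often raised by deacetylase inhibitors to -1.92 for ATF4 targets.

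The direct drug targets differed in level among themselves. HDAC3, a class I deacetylase and the catalytic partner of the NCOR complexes, had 64.3, 62.1 and 66.5 CPM with romidepsin and 29.1, 30.0 and 25.8 CPM with afatinib. Its groups did not overlap, and its log2 fold change was 1.19 (SE 0.08, edgeR adjusted p = 2.9e-17). HDAC2 was 1.48-fold higher with romidepsin, at 40.4 ± 4.88 against 27.5 ± 2.34 CPM. HDAC1 had 70.0 ± 3.10 CPM with romidepsin and 67.0 ± 1.56 CPM with afatinib, with overlapping groups (log2 fold change 0.06, edgeR adjusted p = 0.451). The class IIa member HDAC9, chosen after its values were seen, averaged 3.97 CPM with romidepsin and 0.847 CPM with afatinib, and HDAC7 of the same class was lower, at 54.4 ± 5.38 against 102 ± 6.69 CPM. Over the 11 zinc-dependent deacetylases, 4 were higher, 2 were lower and 5 were not called. HDAC8, at 8.51 ± 0.344 against 6.17 ± 1.33 CPM, was called at an adjusted p of 0.0219 in edgeR but at 0.165 without afatinib replicate 1 and 0.0596 without romidepsin replicate 3.

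Of 21 corepressor subunits, the partners of the deacetylases, 8 were higher with romidepsin and 12 lower, with a median log2 fold change of -0.18. MBD3, a subunit of the nucleosome remodelling and deacetylase complex, averaged 107 ± 12.7 CPM with romidepsin and 254 ± 10.02 CPM with afatinib. Histone acetyltransferases and bromodomain readers held 12 lower and 3 higher genes of 17 tested, with a median of -0.45. CREBBP and EP300, which acetylate histone H3 at enhancers, were 2.14-fold and 1.60-fold lower with romidepsin. CREBBP stood at 73.9 ± 5.27 against 158 ± 8.11 CPM, and KAT2A at 92.9 ± 7.71 against 188 ± 6.55 CPM. KAT7 and KAT5 were lower as well, by 1.15 and 1.00 on the log2 scale.

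Of the receptors of the EGFR family, ERBB2 alone passed the filter on low counts. EGFR had 2, 2 and 13 reads in the romidepsin libraries and 5, 6 and 10 reads in the afatinib libraries. ERBB3 had 4, 1 and 6 reads with romidepsin and 8, 2 and 8 reads with afatinib, and ERBB4 had at most 3 reads in any of these libraries. None of these genes had enough reads to test. ERBB2 was tested, at 5.33, 4.35 and 7.01 CPM with romidepsin and 10.3, 11.1 and 11.9 CPM with afatinib. Its groups did not overlap, and its log2 fold change was -0.97 (SE 0.18, edgeR adjusted p = 7.9e-06). DMSO cells had 4.99 ± 1.27 CPM of ERBB2.

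Among kinases that carry the cysteine bound by afatinib, 2 of 7 tested were higher with romidepsin and 4 lower. JAK3, the kinase of the common gamma chain, had 81.1, 83.5 and 81.9 CPM with romidepsin and 201, 207 and 194 CPM with afatinib. It did not overlap between groups (log2 fold change -1.29, SE 0.06, edgeR adjusted p = 4.01e-23). DMSO cells held 254 ± 20.8 CPM. BLK, a SRC-family kinase, was 3.08-fold lower with romidepsin, at 3.06 ± 0.331 against 9.36 ± 1.45 CPM. TEC ran the other way, at 8.71 ± 2.08 CPM with romidepsin and 2.78 ± 0.152 CPM with afatinib. TXK, a T cell kinase of the TEC family chosen after its values were seen, averaged 1.61 CPM with romidepsin and 0.117 CPM with afatinib. Its afatinib mean lay below the level of 3 reads (0.241 to 0.344 CPM). TXK could therefore not pass the filter on low counts through the afatinib libraries.

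Genes listed as often raised by deacetylase inhibitors, a list drawn up with results of these libraries known, were higher with romidepsin in 15 of 22 cases, lower in 4 and not called in 3, with a median log2 fold change of 1.67. Some members, CRIP2, TUBB3 and HPCAL4 among them, averaged under 1 CPM with afatinib and in DMSO. They could pass the filter on low counts only through libraries with romidepsin, so the filter set part of this balance. The 4 lower members were CLU, GADD45A, KLF6 and CRIP1. CLU averaged under 1 CPM in all groups but afatinib. GADD45A averaged 61.3 CPM with romidepsin and 133.6 CPM with afatinib, KLF6 303.5 and 389.2 CPM, and CRIP1 9.60 and 18.35 CPM. GADD45A, KLF6 and CRIP1 were added after their values were seen, outside the 301 genes checked under other settings. HIST2H2BE, which encodes a polyadenylated histone H2B, had 31.3, 32.3 and 36.2 CPM with romidepsin and 2.21, 2.08 and 2.49 CPM with afatinib. The 2 sets of libraries did not overlap, and the fold was 14.6. Histone genes are near-identical copies, so reads may be split between them. The linker histone gene HIST1H1C was 5.08-fold higher, at 98.3 ± 6.32 against 19.3 ± 0.776 CPM. CRIP2, a LIM domain gene, averaged 12.1 ± 1.06 CPM with romidepsin and 0.826 ± 0.557 CPM with afatinib. DHRS2, a short-chain dehydrogenase, averaged 4292 ± 223 CPM with romidepsin, 919 ± 34.2 CPM with afatinib and 1207 ± 63.9 CPM in DMSO. CDKN1A, the cell cycle inhibitor p21, had 1319, 1292 and 1238 CPM with romidepsin and 403, 412 and 395 CPM with afatinib, 3.18-fold higher with romidepsin (SE 0.05 on the log2 scale, edgeR adjusted p = 1.8e-30). DMSO cells held 297 ± 21.2 CPM of it.

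STC1, HPCAL4 and RGS9 were among the genes with the largest folds toward romidepsin at a mean of 5 CPM or more over the 6 libraries. STC1, the secreted glycoprotein stanniocalcin 1 (GRCh38.p12 chromosome 8, 23841929 to 23854806, minus strand), had 83.2, 103 and 89.1 CPM with romidepsin and 0.276, 0.379 and 0.321 CPM with afatinib. That was a 272-fold difference, and DMSO cells stood at 0.405 ± 0.281 CPM. HPCAL4, a neuronal calcium sensor (chromosome 1, 39678648 to 39691485, minus strand), had 707 reads in all with romidepsin against 3 with afatinib, a ratio of 245 with a 95% counting interval of 83.4 to 1189. RGS9, a regulator of G protein signalling, was 65.8-fold higher. SYN1, a synaptic vesicle protein, averaged 37.0 ± 4.01 CPM with romidepsin, 0.748 ± 0.161 CPM with afatinib and 2.79 ± 0.689 CPM in DMSO. It shares exon bases with ARAF on the opposite strand, and the counting did not use strand, so reads of the pair cannot be told apart there. FAM43A (chromosome 3, 194686544 to 194689037, plus strand) had 424, 393 and 437 CPM with romidepsin and 8.57, 6.34 and 8.83 CPM with afatinib, a 52.5-fold difference. DACT3, a Wnt pathway inhibitor, was 47.9-fold higher at 31.6 ± 0.425 against 0.656 ± 0.170 CPM. The non-coding LINC01554, RASL11A and the carboxypeptidase M gene were also among the 12 most elevated at 5 CPM or more, with folds of 55.4, 44.4 and 38.4.

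Among abundant genes higher with romidepsin, PTGS2, the inducible cyclooxygenase, had 612, 664 and 664 CPM with romidepsin and 44.1, 49.8 and 49.1 CPM with afatinib. On the log2 scale it was higher by 3.76 (SE 0.07, edgeR adjusted p = 1.44e-41). DMSO cells held 43.5 ± 1.65 CPM. DEPP1, a FOXO target that shares exon bases with RASSF4, averaged 320 ± 14.5 CPM with romidepsin and 25.1 ± 2.84 CPM with afatinib, on either side of 71.1 ± 1.245 CPM in DMSO. DUSP2, a nuclear phosphatase of MAP kinases, averaged 458 ± 21.5 CPM with romidepsin and 38.7 ± 3.22 CPM with afatinib, again on either side of 85.5 ± 3.30 CPM in DMSO.

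ANGPT4, KLHDC7B and INHBE were among the genes with the largest folds toward afatinib at 5 CPM or more. ANGPT4, an angiopoietin (chromosome 20, 869900 to 916334, minus strand), had 0.344, 0.229 and 0.245 CPM with romidepsin and 17.97, 22.0 and 20.5 CPM with afatinib. It was 70.3-fold lower with romidepsin, and DMSO cells held 0.786 ± 0.652 CPM. KLHDC7B (chromosome 22, 50546203 to 50551023, plus strand) averaged 2.36 ± 0.259 CPM with romidepsin and 130 ± 3.26 CPM with afatinib. INHBE, an inhibin beta subunit (chromosome 12, 57452323 to 57459280, plus strand), averaged 0.368 ± 0.137 CPM with romidepsin and 17.8 ± 2.64 CPM with afatinib. HYAL4, which shares exon bases with a hyaluronidase pseudogene, and NDUFA4L2, which shares them with SHMT2, were 35.6-fold and 15.97-fold lower with romidepsin. MTRNR2L10, OR7E83P and LINC01138 were also among the 12 largest, and the first 2 of these have near-identical copies elsewhere in the genome, so their counts are uncertain.

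Several of the strongest differences came from genes that DMSO cells held at high levels. RAI14, an actin-bundling protein (chromosome 5, 34656328 to 34832612, plus strand), had 32.8, 34.1 and 27.0 CPM with romidepsin and 594, 576 and 576 CPM with afatinib, while DMSO cells held 349 ± 28.0 CPM. STRA6, the retinol transporter, averaged 30.96 ± 1.45 CPM with romidepsin, 342 ± 9.97 CPM with afatinib and 160 ± 21.2 CPM in DMSO. HOXB9 averaged 20.8 ± 2.44 CPM with romidepsin, 254 ± 9.81 CPM with afatinib and 92.9 ± 0.271 CPM in DMSO. In each of these genes the romidepsin level lay below DMSO and the afatinib level above it. The adhesion gene CDH11 and ISLR, both known from stromal cells, were 17.8-fold and 17.5-fold lower with romidepsin.

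Amino acid stress genes had the lowest median fold change of the lists. Of 29 tested ATF4 targets, 24 were lower with romidepsin, 23 of them at least 2-fold, 3 were higher and 2 were not called, with a median log2 fold change of -1.92. ATF5, itself a stress-responsive transcription factor (chromosome 19, 49928702 to 49933935, plus strand), had 86.0, 92.8 and 89.1 CPM with romidepsin and 1598, 1606 and 1617 CPM with afatinib. The libraries of the drugs did not overlap, and the log2 fold change was -4.17 (SE 0.06, edgeR adjusted p = 4.48e-45). DMSO cells held 247 ± 2.77 CPM. ATF5 shares exon bases with NUP62 on the opposite strand. TRIB3, a pseudokinase induced by ATF4, had 20.5, 21.0 and 16.9 CPM with romidepsin and 310, 314 and 290 CPM with afatinib, against 38.2 ± 2.20 CPM in DMSO. DDIT3, the factor CHOP, had 4.64, 5.84 and 4.49 CPM with romidepsin and 46.4, 51.1 and 47.9 CPM with afatinib, against 5.47 ± 0.840 CPM in DMSO. The romidepsin libraries lay below the DMSO mean for TRIB3 and close to it for DDIT3.

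The same list held the cell's amino acid supply. CHAC1, which degrades glutathione (chromosome 15, 40952962 to 40956512, plus strand), had 9.28, 8.59 and 9.79 CPM with romidepsin and 82.0, 90.9 and 80.9 CPM with afatinib, a log2 fold change of -3.19 (SE 0.10, edgeR adjusted p = 5.86e-32). CHAC1 and the other genes of this paragraph were chosen after their values were seen. In the combination CHAC1 reached 432 ± 30.0 CPM, and in DMSO its mean was 3.55 CPM. ASNS, asparagine synthetase, averaged 2.40 ± 0.322 CPM with romidepsin and 8.99 ± 0.371 CPM with afatinib, and 24.4 ± 1.14 CPM in the combination. SLC3A2 and SLC7A5, the chains of the large neutral amino acid transporter, were 6.04-fold and 2.91-fold lower with romidepsin. SLC3A2 had 218, 188 and 186 CPM with romidepsin and 1190, 1247 and 1145 CPM with afatinib. The arginine transporter SLC7A1 was 4.96-fold lower and PSAT1, of serine synthesis, 5.76-fold lower. PPP1R15A, which returns translation after stress, averaged 132 ± 1.43 CPM with romidepsin and 559 ± 17.3 CPM with afatinib. ATF4 messenger RNA differed less, at 912 ± 24.96 CPM with romidepsin and 2298 ± 31.03 CPM with afatinib, a 2.52-fold difference. The exceptions on the higher side included DDIT4, an inhibitor of mTOR that also answers hypoxia and glucocorticoids, at 711 ± 59.9 CPM with romidepsin and 153 ± 10.7 CPM with afatinib. MTHFD2, of mitochondrial folate metabolism, was 1.45-fold higher.

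**Figure D3:**
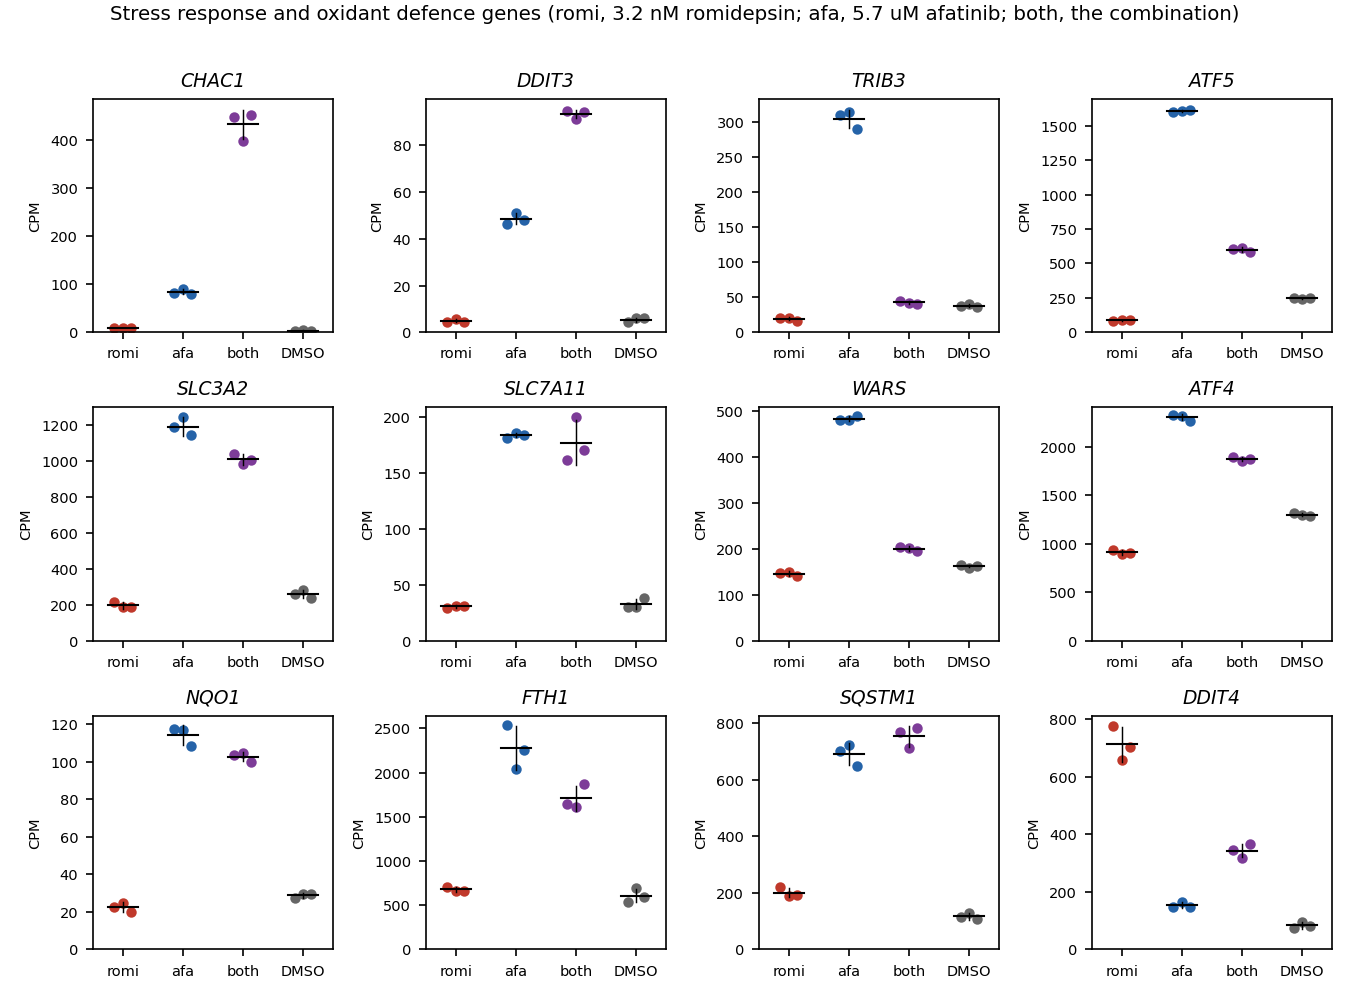
Level in CPM (y axis, from 0) of 12 genes of amino acid stress and oxidant defence. Points are the 3 libraries of romidepsin (romi), afatinib (afa), the combination (both) and DMSO, with the mean as a horizontal bar and the SD as a vertical line. Of the drug pair, afatinib is the higher in 11 panels, and romidepsin in that of DDIT4 (711 against 153 CPM).

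Promoters of the ATF4 targets were searched for the composite element read by ATF4 with C/EBP partners, written as TGATGNAA and taken on both strands, from 250 bases before to 50 bases after each RefSeq start. It occurred in 8 of the 24 members with a promoter in the table (33.3%), against 4.46% of all 27305 genes. Counted by start, it occurred in 20.5% of the list's starts and 3.62% of all starts. All 8 were lower with romidepsin, in a list where 24 of 29 tested members were lower. The stretches below are shown because they carry that element at CHAC1 and ASNS, described above, and at ATF3, a stress-induced transcription factor, with the matching bases in capitals. They come from RefSeq on GRCh38.p14, run 5′ to 3′ on the gene's strand, and lie at chr15:40953221-40953329 (plus) for CHAC1, chr7:97872409-97872536 (minus) for ASNS and chr1:212565157-212565283 (plus) for ATF3.
CHAC1: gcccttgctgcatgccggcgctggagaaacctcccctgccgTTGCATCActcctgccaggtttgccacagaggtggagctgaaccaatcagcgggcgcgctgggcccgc
ASNS: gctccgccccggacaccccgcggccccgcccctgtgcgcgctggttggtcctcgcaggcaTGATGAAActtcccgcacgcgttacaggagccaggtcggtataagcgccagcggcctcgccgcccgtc
ATF3: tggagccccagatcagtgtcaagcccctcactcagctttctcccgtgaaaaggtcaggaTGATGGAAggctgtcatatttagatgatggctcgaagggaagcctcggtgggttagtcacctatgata
In CHAC1 the match reads on the opposite strand. A match describes these letters and was not tested as a binding site. The elements accompanied differences of different size: CHAC1 was 9.11-fold lower with romidepsin, ASNS 3.78-fold, and ATF3 1.20-fold, at 138 ± 4.96 against 164 ± 3.00 CPM.

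Enzymes that charge transfer RNAs followed in part. Of 20 cytosolic aminoacyl tRNA synthetases, 13 were lower with romidepsin and 6 higher, with a median log2 fold change of -0.73. WARS, which charges tryptophan and also responds to interferon gamma, had 149, 151 and 141 CPM with romidepsin and 481, 481 and 491 CPM with afatinib, a 3.31-fold difference. GARS, YARS and LARS, the enzymes for glycine, tyrosine and leucine, were 2.76-fold, 2.59-fold and 2.49-fold lower.

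Chaperones of the endoplasmic reticulum went the opposite way from the ATF4 targets. Of 21 tested genes of this group, 15 were higher with romidepsin and 3 lower, with a median of 0.35. CALR, calreticulin, had 3422, 3486 and 3119 CPM with romidepsin and 1246, 1265 and 1213 CPM with afatinib, against 1937 ± 156 CPM in DMSO. HSP90B1 averaged 534 ± 7.13 CPM with romidepsin, 170 ± 4.47 CPM with afatinib and 279 ± 13.1 CPM in DMSO, so the drugs lay on either side of DMSO for both chaperones. CRELD2 was 2.59-fold higher and HSPA5, the central chaperone BiP, 1.67-fold higher. XBP1, a transcription factor of the unfolded protein response, was among the lower members at 72.8 ± 1.69 CPM with romidepsin and 247 ± 5.11 CPM with afatinib. Cytosolic and mitochondrial heat shock chaperones held 9 higher and 4 lower genes of 17. DNAJB1 averaged 722 ± 38.5 CPM with romidepsin and 290 ± 6.89 CPM with afatinib, and BAG3 was 1.91-fold higher. MT2A, a metal-binding metallothionein, averaged 50.9 ± 5.41 CPM with romidepsin and 24.3 ± 2.40 CPM with afatinib.

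Oxidant defence genes under NRF2 were lower with romidepsin in 13 of 17 cases and higher in 3, with a median log2 fold change of -0.65. OSGIN1, an oxidative stress-induced growth inhibitor, had 3.27, 1.38 and 1.88 CPM with romidepsin and 25.3, 29.4 and 21.8 CPM with afatinib, against 1.92 ± 0.457 CPM in DMSO. SLC7A11, the cystine importer that ATF4 also controls, had 29.6, 31.3 and 31.5 CPM with romidepsin and 182, 185 and 184 CPM with afatinib. NQO1, a quinone reductase, averaged 22.6 ± 2.45 CPM with romidepsin and 114 ± 5.15 CPM with afatinib. For these genes the romidepsin libraries stood near DMSO and the afatinib libraries above it. TXNRD1 was 2.00-fold lower with romidepsin. FTH1, ferritin heavy chain, was 3.36-fold lower, with many processed pseudogenes that make its counts uncertain. The exceptions included GCLC, of glutathione synthesis, at 2.04-fold higher with romidepsin. The loose pattern TGANNNNGC, searched for the NRF2 element, occurred in 5 of 11 members with a promoter (45.5%) and in 47.1% of all genes. A pattern this common cannot tell whether the members carry the NRF2 element more often than other genes.

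Of 37 cytokine and chemokine genes, 20 had enough reads to test, 14 of them higher with romidepsin and 5 lower. Members such as IL5, with 2 reads in all with afatinib, could not pass the filter on low counts through the afatinib libraries. The filter may therefore have set part of this balance. IL22, a cytokine that acts on keratinocytes (chromosome 12, 68248242 to 68253604, minus strand), had 201, 204 and 202 CPM with romidepsin and 0.829, 0.947 and 0.723 CPM with afatinib. The difference was 242-fold (log2 fold change 7.92, SE 0.16, edgeR adjusted p = 1.3e-34). DMSO cells held 1.84 ± 1.22 CPM of IL22 and the combination 90.3 ± 5.30 CPM. IL9, a T cell growth factor (chromosome 5, 135892246 to 135895827, minus strand), had 347, 325 and 351 CPM with romidepsin and 3.32, 4.45 and 4.90 CPM with afatinib. DMSO cells held 16.9 ± 2.61 CPM of IL9, between the drugs. IL5, which acts on eosinophils, had 232 reads in all with romidepsin and 2 with afatinib, a ratio of 120 with a counting interval of 33.0 to 1000. IL13, another type 2 cytokine, averaged 115 ± 3.91 CPM with romidepsin, 42.0 ± 1.94 CPM with afatinib and 95.6 ± 5.86 CPM in DMSO. IL6 was 5.08-fold higher and TNF 4.89-fold higher with romidepsin. CSF1, the macrophage growth factor, was 5.51-fold lower, at 20.6 ± 0.555 against 113 ± 3.88 CPM. CCL22, a ligand of CCR4, had 1.65 ± 0.513 CPM with romidepsin and 2.95 ± 0.704 CPM with afatinib, against 46.8 ± 4.17 CPM in DMSO. Its drug groups overlapped, and its edgeR adjusted p of 0.00576 became 0.0699 without afatinib replicate 3. IL5, IL13 and TNF were chosen after their values were seen.

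**Figure D4:**
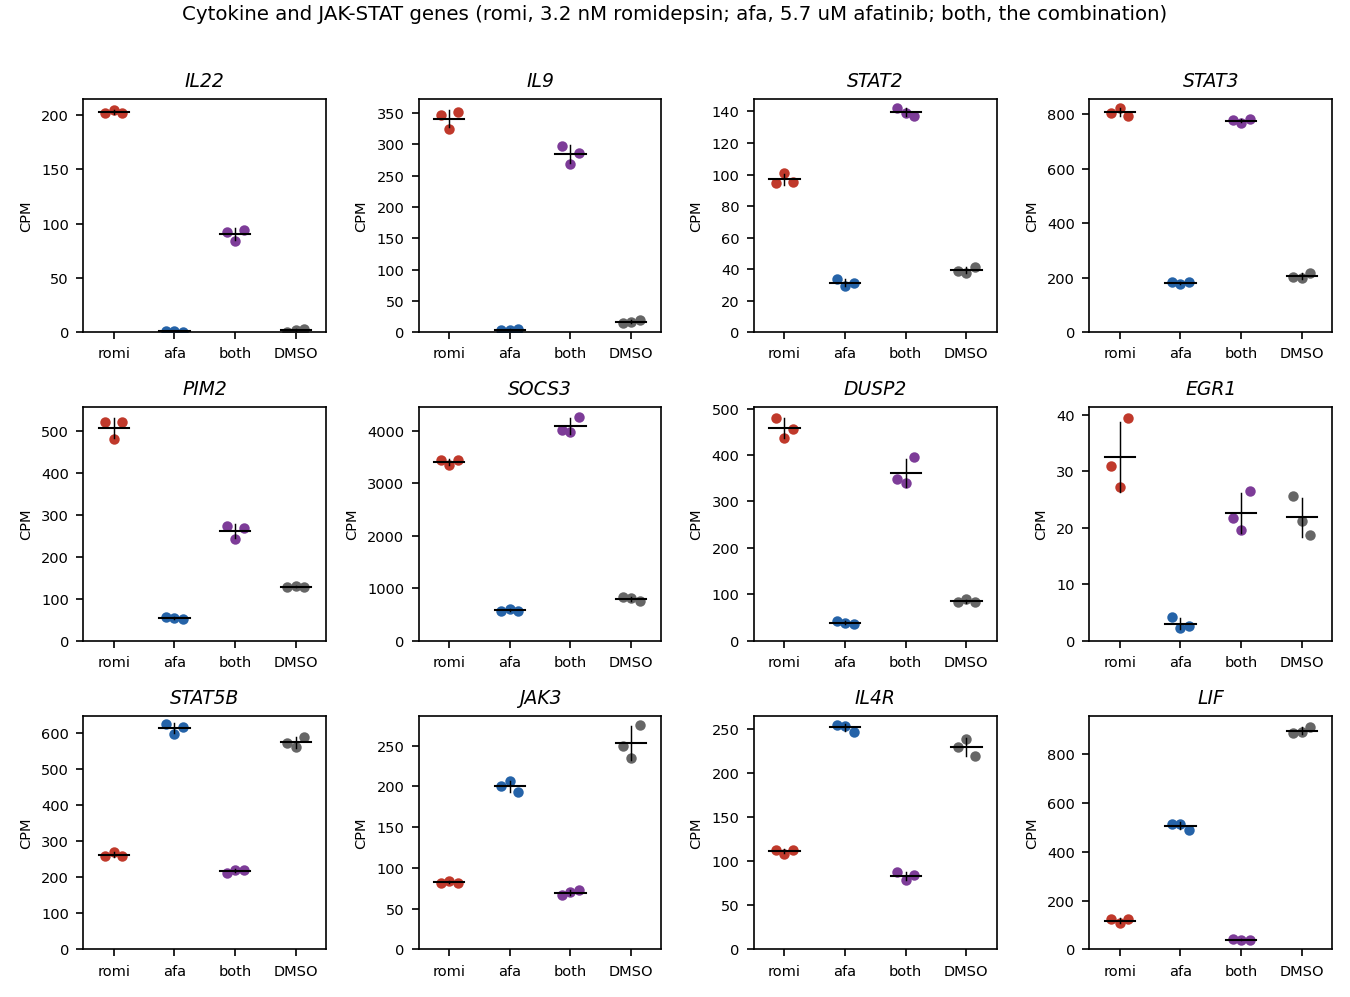
Level in CPM (y axis, from 0) of 12 cytokine and JAK-STAT genes. Points are the 3 libraries of romidepsin (romi), afatinib (afa), the combination (both) and DMSO, with the mean as a horizontal bar and the SD as a vertical line. IL22 and IL9 are near 0 with afatinib and at 202 and 341 CPM with romidepsin, while STAT5B, JAK3, IL4R and LIF are higher with afatinib.

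The chain from cytokine receptor to STAT was split. Among 26 receptor chains, Janus kinases and STATs, 11 were higher with romidepsin, 11 lower and 4 not called. STAT3 had 804, 823 and 794 CPM with romidepsin and 183, 176 and 184 CPM with afatinib. STAT2 and STAT4 were 3.07-fold and 5.70-fold higher, the second of these at no more than 5.61 CPM in any of these libraries. In contrast STAT5B, STAT5A and STAT6 were lower with romidepsin, by 2.33-fold, 1.94-fold and 3.05-fold. STAT5B had 260, 270 and 258 CPM with romidepsin and 624, 598 and 616 CPM with afatinib, beside 574 ± 14.9 CPM in DMSO. JAK1 was 1.49-fold higher, at 109 ± 6.27 against 73.1 ± 4.18 CPM, while its partner JAK3 was lower as given above.

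Receptors in the same chain differed by gene. IL7R had 72.3, 74.4 and 72.8 CPM with romidepsin and 8.20, 8.24 and 9.31 CPM with afatinib, on either side of 33.2 ± 4.27 CPM in DMSO. IL2RA, the alpha chain of the IL-2 receptor, averaged 422 ± 6.68 CPM with romidepsin, 835 ± 8.52 CPM with afatinib and 1225 ± 22.9 CPM in DMSO. IL4R and IL15RA were 2.26-fold and 3.76-fold lower with romidepsin. Of 19 genes known as STAT3 and STAT5 targets, 12 were higher and 7 lower, with a median of 0.46. PIM2, a survival kinase, had 522, 481 and 522 CPM with romidepsin and 55.9, 54.8 and 52.8 CPM with afatinib. SOCS3, a feedback inhibitor of JAK signalling, averaged 3410 ± 56.9 CPM with romidepsin and 581 ± 17.2 CPM with afatinib, and IRF4 was 3.83-fold higher. LIF, a cytokine of the IL-6 family, was 4.27-fold lower, at 119 ± 8.97 against 507 ± 14.7 CPM and 897 ± 14.5 CPM in DMSO.

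Interferon genes split into groups of opposite direction. Guanylate-binding proteins and the IRF1 group held 10 higher and 4 lower genes of 14, with a median log2 fold change of 1.53. GBP2 had 18.9, 17.5 and 18.2 CPM with romidepsin and 0.645, 0.663 and 0.161 CPM with afatinib, a 37.7-fold difference. IRF1, the transcription factor of that group, averaged 153 ± 7.60 CPM with romidepsin and 58.3 ± 4.91 CPM with afatinib. GBP5 was 3.19-fold higher and CXCL10, a chemokine under interferon gamma, 3.59-fold higher. CXCL9 had 65 reads with romidepsin and 1 with afatinib, a ratio of 67.5 with a counting interval of 11.7 to 2706. APOL6 went against the group, at 95.5 ± 6.74 CPM with romidepsin and 538 ± 11.03 CPM with afatinib, while its relative APOL3 was 3.97-fold higher.

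The classical interferon-stimulated genes held 7 higher and 14 lower of 26 tested, with a median of -0.66. IFIT2, which restrains viral translation, had 28.2, 27.4 and 28.0 CPM with romidepsin and 138, 133 and 141 CPM with afatinib, against 19.4 ± 2.20 CPM in DMSO. IFIT3 and the RNA sensor IFIH1 were 2.39-fold and 2.35-fold lower with romidepsin, and IRF7 was 2.88-fold lower. SAMD9, an antiviral factor, had 217, 259 and 228 CPM with romidepsin and 97.95, 107 and 109 CPM with afatinib. ISG15 was 1.58-fold higher, RSAD2 1.72-fold higher and IFI6 2.21-fold higher. STAT2, a member of the complex known to drive such genes, was itself higher.

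The interferon element, searched as GAAANNGAA on both strands, stood in the promoters of 13 of 17 members with one in the table (76.5%), against 9.86% of all genes. Of the 13, 4 were higher with romidepsin, 6 lower and 3 not called, so genes that carry it went both ways. SAMD9 and IFI6 are shown from the higher side and IFIT3 and IFIH1 from the lower, with each match in capitals, overlapping matches included. They lie at chr7:93118047-93118175 (minus), chr1:27672217-27672408 (minus), chr10:89327782-89327944 (plus) and chr2:162318685-162318908 (minus), in the order printed (RefSeq, GRCh38.p14).
SAMD9: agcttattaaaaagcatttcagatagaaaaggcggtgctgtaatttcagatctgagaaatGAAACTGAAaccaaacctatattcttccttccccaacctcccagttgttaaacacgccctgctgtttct
IFI6: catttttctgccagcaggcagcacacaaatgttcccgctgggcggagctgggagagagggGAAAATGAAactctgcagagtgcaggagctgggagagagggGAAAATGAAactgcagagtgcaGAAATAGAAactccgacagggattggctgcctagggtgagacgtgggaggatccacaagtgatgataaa
IFIT3: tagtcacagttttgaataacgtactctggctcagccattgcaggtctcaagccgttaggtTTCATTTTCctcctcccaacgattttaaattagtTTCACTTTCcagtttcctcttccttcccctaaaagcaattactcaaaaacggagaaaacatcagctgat
IFIH1: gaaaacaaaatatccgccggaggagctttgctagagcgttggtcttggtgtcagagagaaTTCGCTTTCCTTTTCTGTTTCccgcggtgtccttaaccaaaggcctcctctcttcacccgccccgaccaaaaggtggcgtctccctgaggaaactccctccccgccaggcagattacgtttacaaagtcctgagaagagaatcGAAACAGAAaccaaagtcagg
IFI6, with 3 matches, was higher with romidepsin, and IFIH1, with 4, was lower. IFI6 averaged 6.72 ± 0.474 CPM with romidepsin and 3.08 ± 1.47 CPM with afatinib. IFIH1 averaged 47.4 ± 3.64 CPM with romidepsin and 111 ± 7.15 CPM with afatinib.

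Immediate early genes, the first to answer growth signals through MAP kinases, were higher with romidepsin in 14 of 18 cases and lower in 2, with a median of 0.83. EGR1 had 30.9, 27.3 and 39.4 CPM with romidepsin and 4.15, 2.37 and 2.65 CPM with afatinib, against 21.9 ± 3.47 CPM in DMSO. EGR2 averaged 26.4 ± 1.21 CPM with romidepsin, 1.80 ± 0.199 CPM with afatinib and 1.71 ± 0.746 CPM in DMSO. So the afatinib level of EGR1 lay below DMSO, and that of EGR2 lay near it. FOS was 6.57-fold higher, JUNB 3.03-fold higher and IER3 4.65-fold higher. JUN was an exception, at 327 ± 9.999 CPM with romidepsin and 671 ± 16.96 CPM with afatinib. The feedback genes of the MAP kinase pathway held 9 higher, 3 lower and 6 uncalled genes of 18. PHLDA1 was 7.82-fold higher with romidepsin, while SPRY4, an inhibitor of receptor tyrosine kinase signalling, was 4.54-fold lower. DUSP4 differed by 0.16 on the log2 scale, at 391.7 ± 3.21 against 350 ± 7.11 CPM. Its call (edgeR adjusted p = 0.00503) was lost when libraries were scaled by total reads alone (adjusted p = 0.18).

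NF-kB subunits and targets held 7 higher and 11 lower genes of 20. NFKBIZ, an inducible nuclear IkB protein, had 1043, 1064 and 1158 CPM with romidepsin and 283, 270 and 272 CPM with afatinib. BIRC3, an inhibitor of apoptosis, averaged 1899 ± 140 CPM with romidepsin and 493 ± 14.2 CPM with afatinib. The caspase 8 inhibitor CFLAR was 2.97-fold lower with romidepsin.

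Genes of T cell receptor signalling were lower with romidepsin in 10 of 16 cases, higher in 1 and not called in 5, with a median of -0.92. ZAP70, the kinase that binds the activated receptor, had 127, 108 and 114 CPM with romidepsin and 385, 409 and 377 CPM with afatinib, against 408 ± 26.9 CPM in DMSO. CD247, the zeta chain, averaged 22.5 ± 2.94 CPM with romidepsin, 68.1 ± 5.37 CPM with afatinib and 76.3 ± 5.26 CPM in DMSO. For both genes, and for CD3G, the afatinib level lay near DMSO or below it and the romidepsin level lay lower still. The adaptor LCP2 was 3.31-fold lower. PTPRC, the phosphatase CD45, was the single higher member, at 43.0 ± 4.997 against 14.4 ± 1.25 CPM.

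Costimulatory and inhibitory receptors held 5 higher and 7 lower genes of 13. TIGIT, an inhibitory receptor, had 79.3, 85.2 and 81.6 CPM with romidepsin and 455, 451 and 468 CPM with afatinib, against 526 ± 10.4 CPM in DMSO. CD274, the ligand PD-L1, ran the other way at 65.4 ± 1.21 CPM with romidepsin and 21.0 ± 1.56 CPM with afatinib. CD96 and CD40LG, the CD40 ligand, were 2.39-fold and 2.31-fold lower.

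Among 26 T lineage transcription factors, 13 were higher with romidepsin and 9 lower. MAF, a factor of IL-4 and IL-21 producing cells, had 23.7, 24.1 and 22.5 CPM with romidepsin and 2.67, 1.51 and 1.93 CPM with afatinib. ID2, an inhibitor of helix-loop-helix factors, was 5.53-fold higher, at 654 ± 19.1 against 118 ± 3.48 CPM. SATB1, a chromatin organiser of T cells, was 3.56-fold higher, and RUNX2 3.81-fold lower. IKZF2, the factor Helios, had 75 reads with romidepsin and 2 with afatinib, a ratio of 38.9 with a counting interval of 10.4 to 327. GATA3, a lineage factor of type 2 helper cells, differed little, at 319 ± 3.29 against 249 ± 3.72 CPM.

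Homing receptors held 7 higher and 9 lower genes of 17. SELPLG, the selectin ligand PSGL-1, averaged 68.3 ± 6.503 CPM with romidepsin and 306 ± 19.4 CPM with afatinib. S1PR1, which guides exit from lymph nodes, averaged 55.5 ± 0.303 CPM with romidepsin and 236 ± 8.497 CPM with afatinib. The integrin chains ITGB1 and ITGB7 were 3.64-fold and 3.29-fold higher with romidepsin. Marker genes of cutaneous T cell lymphoma held 6 higher and 4 lower genes of 11. The list was not divided by the direction in which a marker changes in the disease. These counts therefore do not tell whether either drug moved cells toward or away from it. CCR4, a skin-homing receptor that is a drug target in this disease, had 130, 131 and 132 CPM with romidepsin and 402, 409 and 415 CPM with afatinib, against 464 ± 27.4 CPM in DMSO. TWIST1, a transcription factor expressed in Sezary cells, was 2.41-fold higher. Cytotoxic granule genes held 2 higher and 1 lower of 5, with PRF1, perforin, 2.50-fold lower.

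Antigen presentation genes were lower more often than higher in class I, 8 of 16 against 4. TAPBPL and the immunoproteasome subunit PSMB10 were 3.76-fold and 3.58-fold lower with romidepsin, and B2M, the light chain, was 1.61-fold higher, at 391 ± 19.1 against 243 ± 6.51 CPM. In class II, 3 of 8 were higher and 2 lower. CIITA, the master activator of class II, averaged 222 ± 7.12 CPM with romidepsin, 452 ± 14.1 CPM with afatinib and 656 ± 20.8 CPM in DMSO. CD74, the invariant chain, was nevertheless 1.35-fold higher with romidepsin.

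Genes of DNA replication were lower with romidepsin in 32 of 41 cases, higher in 3 and not called in 6, with a median of -0.69. MCM5, a subunit of the replicative helicase, had 47.8, 42.2 and 45.9 CPM with romidepsin and 143, 149 and 142 CPM with afatinib, against 153 ± 10.1 CPM in DMSO. E2F1 averaged 63.9 ± 3.83 CPM with romidepsin, 184 ± 13 CPM with afatinib and 147 ± 4.07 CPM in DMSO. The licensing factor CDT1 and GINS2, of the helicase complex, were 2.33-fold and 2.39-fold lower, and PCNA, the sliding clamp, 1.72-fold lower. RRM2, the small subunit of ribonucleotide reductase, was an exception, at 1280 ± 70.3 CPM with romidepsin and 612 ± 19.3 CPM with afatinib. CDT1, GINS2, PCNA and RRM2 were chosen after their values were seen.

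The E2F element, searched as TTTCCCGC on both strands, stood in the promoters of 10 of 34 replication genes with one in the table (29.4%), against 1.98% of all genes. Counted by start, the shares were 22.7% and 1.63%. Of the 10 genes, 9 were lower with romidepsin, 1 was not called and 0 were higher, in a list where 32 of 41 were lower. The stretches of UHRF1, GINS2, CDT1 and MCM7, all lower with romidepsin, are shown with the match in capitals, on the strand opposite to the one written above. They lie at chr19:4909427-4909500 (plus), chr16:85688955-85689045 (minus), chr16:88803694-88803788 (plus) and chr7:100101517-100101644 (minus), in the order printed (RefSeq, GRCh38.p14).
UHRF1: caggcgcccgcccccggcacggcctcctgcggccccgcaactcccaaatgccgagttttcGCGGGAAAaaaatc
GINS2: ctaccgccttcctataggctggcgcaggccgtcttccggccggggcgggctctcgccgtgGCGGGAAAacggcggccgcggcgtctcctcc
CDT1: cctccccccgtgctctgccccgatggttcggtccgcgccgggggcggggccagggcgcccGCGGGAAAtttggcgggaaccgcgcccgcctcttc
MCM7: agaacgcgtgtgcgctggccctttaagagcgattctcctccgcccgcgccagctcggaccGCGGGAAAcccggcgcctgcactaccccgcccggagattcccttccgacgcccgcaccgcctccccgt
UHRF1, which maintains DNA methylation at the replication fork, had 67.2, 56.5 and 54.9 CPM with romidepsin and 133, 163 and 143 CPM with afatinib. MCM7 averaged 219 ± 9.88 CPM with romidepsin, 456 ± 21.9 CPM with afatinib and 616 ± 45.2 CPM in DMSO.

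Mitotic genes were less one-sided, with 12 higher, 17 lower and 9 uncalled of 38 and a median of -0.15. PTTG1, securin (chromosome 5, 160421855 to 160428739, plus strand), had 221, 200 and 208 CPM with romidepsin and 44.7, 46.0 and 43.4 CPM with afatinib, against 84.0 ± 8.41 CPM in DMSO. ESPL1, the separase that securin holds inactive, was 1.96-fold lower with romidepsin, at 84.0 ± 1.51 against 164 ± 3.24 CPM. FOXM1, the transcription factor of late cell cycle genes, was 2.53-fold lower. CDK1 and CCNB1, the kinase and cyclin of mitotic entry, were 1.33-fold and 1.24-fold higher, and MKI67, the proliferation marker, was 1.64-fold lower, at 613 ± 31.04 against 1004 ± 36.4 CPM and 1507 ± 126 CPM in DMSO. The motif TTTGAA of the cell cycle homology region occurred in 21 of 31 members with a promoter (67.7%), against 18.2% of all genes, and of these 6 were higher, 10 lower and 5 not called. Genes of homologous recombination and the Fanconi pathway were lower in 21 of 27 cases and higher in 4, with a median of -0.51. BRCA1 averaged 61.2 ± 1.59 CPM with romidepsin and 154 ± 3.96 CPM with afatinib, and BRIP1 was 2.54-fold lower.

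Cell cycle inhibitors, G1 cyclins and retinoblastoma proteins held 6 higher and 6 lower genes of 16. Besides CDKN1A, cyclin D3 (CCND3) was 2.46-fold higher with romidepsin, at 154 ± 6.22 against 62.7 ± 2.91 CPM. CDKN2C and CDKN2D, inhibitors of the cyclin D kinases, moved in opposite directions, 2.06-fold lower and 1.96-fold higher. CDK4 was 1.87-fold lower.

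Cell death genes went in both directions, as did all tested genes (32.2% higher with romidepsin, 32.4% lower). Of 14 BCL2 family genes, 6 were higher with romidepsin and 6 lower. BCL2L11, the BH3-only killer BIM (chromosome 2, 111119378 to 111168445, plus strand), had 30.6, 25.7 and 31.3 CPM with romidepsin and 1.38, 1.89 and 1.93 CPM with afatinib, against 2.04 ± 0.206 CPM in DMSO. Its groups did not overlap, and the log2 fold change was 4.07 (SE 0.17, edgeR adjusted p = 2.1e-26). BMF, another BH3-only gene (chromosome 15, 40087890 to 40108892, minus strand), had 60.3, 62.8 and 60.2 CPM with romidepsin and 4.70, 3.41 and 4.34 CPM with afatinib, against 7.76 ± 1.17 CPM in DMSO. In the combination BCL2L11 averaged 30.6 ± 1.55 CPM and BMF 61.7 ± 0.766 CPM. The survival genes BCL2L1 and BCL2L2 were 2.64-fold and 2.58-fold lower with romidepsin, and the pore former BAX 2.15-fold lower. MCL1, a survival gene, was 1.97-fold higher, at 554 ± 8.99 against 282 ± 9.05 CPM. PMAIP1, which binds MCL1, was 1.38-fold higher.

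Death receptors, caspases and gasdermins held 8 higher and 9 lower genes of 24. FAS had 18.6, 21.8 and 15.99 CPM with romidepsin and 208, 206 and 213 CPM with afatinib, against 137 ± 5.61 CPM in DMSO. It shares exon bases with ACTA2. TNFRSF1A, a receptor of TNF, averaged 8.67 ± 1.37 CPM with romidepsin and 44.2 ± 2.61 CPM with afatinib. RIPK1 and APAF1, the scaffold of the apoptosome, were 3.55-fold and 3.00-fold higher with romidepsin. CASP1, of inflammasome signalling, had 99 reads with romidepsin and 2 with afatinib, a ratio of 51.4 with a counting interval of 13.9 to 430.2. Of 20 genes known as p53 targets, 8 were higher and 8 lower, with TP53INP1 7.94-fold higher and BTG2 2.48-fold higher. Among the lower ones were FAS, the member furthest from 0 (log2 fold change -3.49), GADD45A (-1.13) and BAX (-1.11).

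**Figure D5:**
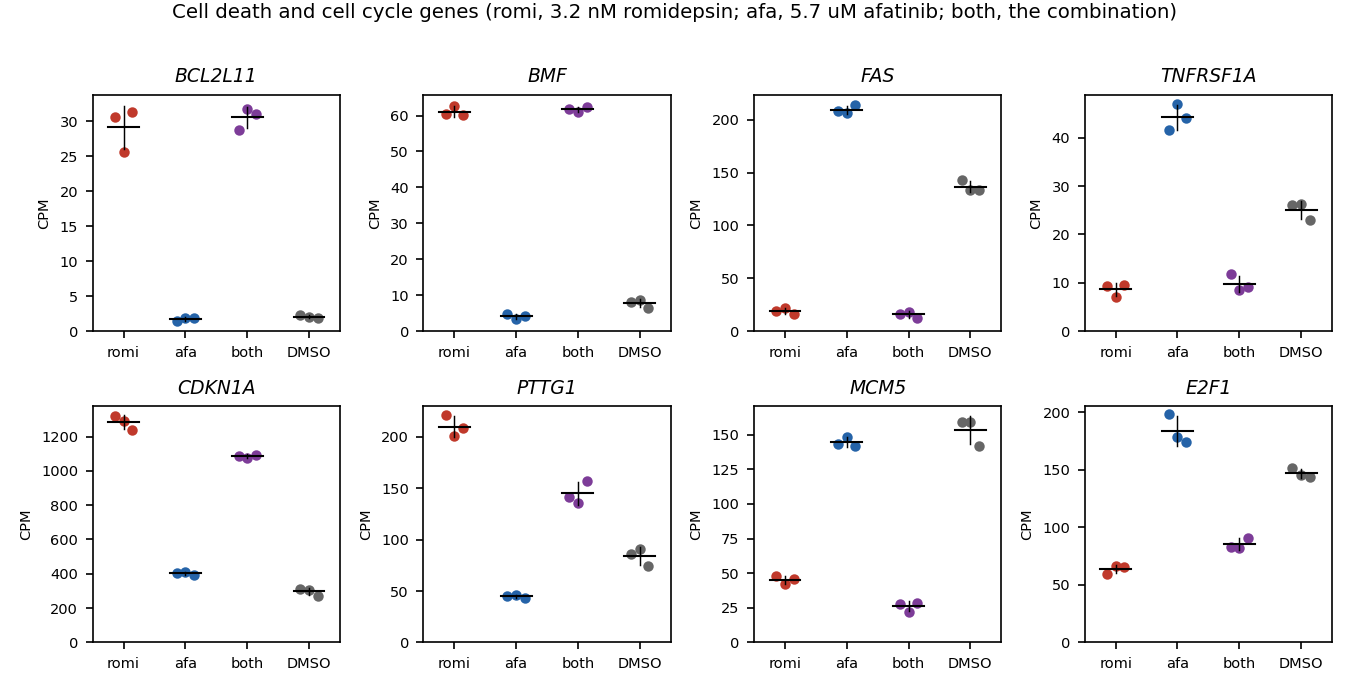
Level in CPM (y axis, from 0) of 8 cell death and cell cycle genes. Points are the 3 libraries of romidepsin (romi), afatinib (afa), the combination (both) and DMSO, with the mean as a horizontal bar and the SD as a vertical line. BCL2L11, BMF, CDKN1A and PTTG1 are higher with romidepsin, and FAS, TNFRSF1A, MCM5 and E2F1 higher with afatinib.

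Hypoxia response genes were higher with romidepsin in 11 of 14 cases and lower in 3, with a median of 0.74. EPAS1, which encodes HIF-2 alpha (chromosome 2, 46293667 to 46386697, plus strand), had 119, 126 and 119 CPM with romidepsin and 5.99, 6.34 and 7.31 CPM with afatinib, against 5.61 ± 0.926 CPM in DMSO. NDRG1 averaged 96.5 ± 4.45 CPM with romidepsin and 7.45 ± 1.096 CPM with afatinib, and the lipid droplet gene HILPDA was 8.31-fold higher. VEGFA, which ATF4 also raises, was lower, at 56.2 ± 1.23 CPM with romidepsin and 160 ± 4.54 CPM with afatinib. Glycolytic genes held 12 higher and 8 lower of 22. PFKFB3, which makes the activator of phosphofructokinase, averaged 279 ± 13.6 CPM with romidepsin and 62.0 ± 5.50 CPM with afatinib. ALDOC was 4.45-fold higher, the glucose transporter SLC2A3 3.43-fold higher, TPI1 2.72-fold higher and LDHA 1.99-fold higher.

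Within the MYC, MAX and MLX network, 8 of 13 genes were higher with romidepsin and 4 lower. TXNIP, which restrains glucose uptake and answers MLX partners, had 455, 477 and 486 CPM with romidepsin and 66.3, 65.3 and 69.1 CPM with afatinib. MYC had 1001, 952 and 956 CPM with romidepsin and 493, 525 and 491 CPM with afatinib, on either side of 623 ± 28.4 CPM in DMSO. The MYC antagonists MXD1 and MXI1 were 3.73-fold and 2.76-fold higher and MNT 2.30-fold lower. MYCL had 41 reads with romidepsin and 0 with afatinib, at least 14.2-fold higher against a floor of 3 counts over the group.

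Cholesterol genes held 8 higher and 13 lower of 23, with a median of -0.27. HMGCS1, an early enzyme of the pathway, averaged 166 ± 7.42 CPM with romidepsin and 64.2 ± 2.00 CPM with afatinib, and INSIG1 was 2.19-fold higher. The regulator SREBF2 was 2.18-fold lower. The sterol element TCACCCCAC was present in 1 of 17 members with a promoter (5.88%) and in 0.535% of all genes. Fatty acid and liver X receptor genes held 8 higher and 6 lower of 14. MYLIP and ABCG1, targets of the liver X receptors, were 7.04-fold and 5.34-fold higher, while the desaturases FADS2 and FADS1 were 2.80-fold and 2.04-fold lower.

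Lysosomal genes were balanced, with 12 higher and 11 lower of 27. The proton pump subunit ATP6V1A averaged 124 ± 13.1 CPM with romidepsin and 41.3 ± 1.74 CPM with afatinib. The element TCACGTGA occurred in 5 of 16 members with a promoter (31.2%), against 1.18% of all genes, with 2 higher, 2 lower and 1 not called. Autophagy genes held 8 higher and 5 lower of 20. GABARAPL1, a ubiquitin-like autophagosome protein, had 40.6, 34.4 and 36.7 CPM with romidepsin and 4.15, 3.98 and 2.25 CPM with afatinib. SQSTM1, the cargo receptor p62 that NRF2 also raises, averaged 200 ± 16.2 CPM with romidepsin, 690 ± 38.7 CPM with afatinib and 117 ± 12.4 CPM in DMSO.

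Genes of ribosomes and mitochondria differed by small amounts. Of 76 cytosolic ribosomal protein genes, 32 were higher with romidepsin, 8 lower and 36 not called, and 66 were alike within 1.5-fold, with a median of 0.11. RPS26 was the member furthest from 0 among those named, 2.41-fold higher, and RPL22 was 1.39-fold lower. Ribosome biogenesis held 16 higher and 7 lower of 30, with 22 alike, FBL being 1.67-fold higher and DDX21 1.51-fold lower. Nuclear-encoded respiratory chain subunits held 16 higher and 2 lower of 34, with NDUFB3 at 15.3 ± 0.154 CPM with romidepsin and 7.43 ± 0.659 CPM with afatinib. Of 13 mitochondrially encoded messenger RNAs, 10 were higher and 0 lower, with a median of 0.36, and MT-ND2 was 1.61-fold higher. When libraries were scaled by total reads alone, the medians of the ribosomal and mitochondrial lists were 0.03 and 0.27.

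A list of neuronal genes normally silenced by REST, with REST itself, held 10 higher and 3 lower genes of 16 tested, with a median of 1.23. The other members of the 31 had too few reads to test. REST was not called, at a log2 fold change of -0.03. STX1A, a protein of synaptic vesicle fusion, had 36.9, 29.8 and 36.1 CPM with romidepsin and 5.80, 5.78 and 5.78 CPM with afatinib. SYP, synaptophysin, was 4.28-fold higher and CHGB, chromogranin B, 4.52-fold higher. Clock and related PAR bZIP genes held 6 higher and 3 lower of 13, with a median of 0.64 that was 0.24 without romidepsin replicate 3. HLF, a PAR bZIP factor (chromosome 17, 55264960 to 55325187, plus strand), had 92.9, 109 and 97.0 CPM with romidepsin and 4.79, 7.38 and 6.58 CPM with afatinib, and 16.03 ± 1.73 CPM in the combination. PER2 was 2.62-fold lower with romidepsin.

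Tubulins and actin regulators held 15 higher and 6 lower genes of 23, with a median of 0.49. ACTG1 had 20960, 19570 and 18800 CPM with romidepsin and 6904, 7169 and 6713 CPM with afatinib, and ACTB was 2.25-fold higher. FLNA, filamin A, was 2.60-fold higher. TUBB2A was 10.4-fold higher, with a near-identical copy in TUBB2B that makes its count uncertain. TGF-beta pathway genes held 9 higher and 5 lower of 16. ID1, a target of bone morphogenetic proteins, averaged 18.9 ± 1.90 CPM with romidepsin and 1.02 ± 0.508 CPM with afatinib.

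DNA and histone methylation enzymes held 4 higher and 11 lower genes of 24, with a median of -0.20. The histone H3 methyltransferases NSD2 and NSD1, which act on lysine 36, were 2.55-fold and 2.31-fold lower with romidepsin, at 187 ± 5.42 against 476 ± 10.6 CPM for NSD2. The demethylase KDM5B was 1.81-fold higher. Among drug efflux pumps, 3 of 4 tested were lower, ABCC1 by 2.06-fold. ABCB1, the pump known to export romidepsin, had 1, 0 and 0 reads with romidepsin and 0, 0 and 2 reads with afatinib, too few to test.

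Some genes moved off the DMSO level to a like extent under either drug. Among the 4426 genes alike within 1.5-fold, 54 had a DMSO mean more than 2-fold below both drug means and 7 had one more than 2-fold above both. SLFN5, a Schlafen family gene, had 326, 350 and 347 CPM with romidepsin, 260, 249 and 267 CPM with afatinib, 497 ± 23.7 CPM in the combination and 79.1 ± 3.495 CPM in DMSO. MAP1LC3B, the autophagosome protein LC3B, averaged 243 ± 22.6 CPM with romidepsin, 239 ± 7.07 CPM with afatinib and 73.4 ± 5.37 CPM in DMSO, and its drug groups overlapped. In the combination it had 1138 ± 56.0 CPM. ATF3 stood at 46.0 ± 5.92 CPM in DMSO, below both drugs, and at 363 ± 2.38 CPM in the combination. NUP62, of the nuclear pore, averaged 254 ± 4.58 CPM with romidepsin and 256 ± 2.24 CPM with afatinib, against 651 ± 25.1 CPM in DMSO and 95.4 ± 4.63 CPM in the combination. It overlaps ATF5, so its level carries the limit given there. ANP32E, a histone H2A.Z chaperone, averaged 230 ± 14.6 CPM with romidepsin and 207 ± 9.69 CPM with afatinib, against 504 ± 24.2 CPM in DMSO.

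The balance of calls differed with the level of a gene in DMSO cells. Among 2308 genes with a DMSO mean under 1 CPM, 29.5% were higher with romidepsin and 15.4% lower. Genes that low in DMSO could pass the filter on low counts through other libraries, 6 of which had romidepsin, alone or in the combination, against 3 with afatinib alone, so the filter can set part of the balance among them. Among 2167 genes over 100 CPM in DMSO, 34.2% were higher and 46.7% lower. Genes with a genomic span over 61605 bases were higher in 40.5% and lower in 30.2% of cases, and those of at most 6305 bases in 23.1% and 28.4%. Of 2220 long non-coding RNA genes, 17.5% were higher with romidepsin and 36.7% lower, with a median log2 fold change of -0.35, against 37.2% and 33.4% of 11899 protein-coding genes. With every library thinned to the same total, the romidepsin libraries held reads from 23018 ± 175 genes and the afatinib libraries from 22541 ± 155 (SD, n = 3 each, exact two-sided permutation p = 0.1, the smallest that 3 against 3 allow). The 10 most abundant genes took 13.7 to 14.7% of the reads with romidepsin and 11.4 to 11.6% with afatinib, so depth over the remaining genes was not matched.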

How the data were processed

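Counts of reads per gene were deposited by the authors in 1 table for all 12 libraries. Per the file headers they were made with featureCounts 2.0.0 on the GENCODE 31 annotation, without strand. The submitters' processing notes also name STAR 2.7.9a, GRCh38.p12 and DESeq2 1.38.1. Libraries were made from total RNA. From the deposited counts, genes passing edgeR's expression filter (16208 of 59050) were fitted over all 12 libraries, which share 1 estimate of spread, with TMM scaling and the quasi-likelihood test of romidepsin against afatinib (edgeR 4.0.16, limma 3.58.1, R 4.3.3). The p-values were adjusted by Benjamini-Hochberg over all tested genes, with a threshold of 0.05, and n is 3 per group. CPM divides counts by the TMM-scaled total, SDs are over 3 libraries, and 3 reads correspond to 0.241 to 0.344 CPM in the 6 drug libraries. Counting intervals cover counting error only. The biological coefficient of variation was 6.13%. The test was checked on simulated data in which only a small share of genes was changed. In the real contrast 64.6% of genes were called, so that check does not cover a difference this wide.

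The comparison and the gene lists were chosen with earlier results of these data known. Of 301 named genes, most follow a rule: the 12 largest differences in each direction at 5 CPM or more, the 6 largest at 100 CPM or more, up to 4 per list, the drug targets with some fixed genes, and 6 genes alike under both drugs. The rest were chosen after their values were seen: CHAC1, SLC3A2, SLC7A5, SLC7A1, ATF4, DDIT4, MTHFD2, PPP1R15A, ASNS, PSAT1, GCLC, TXNRD1, IFIT3, IFIH1, ISG15, RSAD2, SAMD9, IFI6, IRF1, GBP5, CXCL9, CXCL10, IL5, IL13, TNF, IL4R, STAT6, IL2RA, STAT4, CASP1, MCL1, PMAIP1, BAX, MYCL, IKZF2, GATA3, DHRS2, HIST1H1C, JUNB, JUN, SPRY4, DUSP4, CDK1, CCNB1, MKI67, MCM7, PCNA, RRM2, CDT1, GINS2, CDK4, ACTB, VEGFA, HSPA5, TXK, CSF1R, COL1A1, COL3A1, CD3G, TPI1, LDHA, EP300, RPL22 and HDAC9. Some of the 301 are not reported here. Exon bases were shared with another gene by 129 named genes. Promoters are from RefSeq. Each pair of replicates differed by more than counting noise, and each library was counted as 1 sample. Alternatives were DESeq2 1.42.0, other scaling and filters, fewer libraries and a replicate block.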

Additional observations from a re-analysis of the deposited data

How the results depend on the processing

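The counts of genes higher and lower with romidepsin kept within 1.5 times of their values under all 14 alternatives. Higher genes ranged from 4634, with scaling by total reads alone, to 5340, with no filter, and lower genes from 4910, without afatinib replicate 3, to 5856, with scaling by total reads alone. DESeq2 gave 5078 higher and 4946 lower. Leaving out 1 library gave 4991 to 5021 higher, 4910 to 5027 lower, 1968 to 2049 at least 2-fold higher, 2171 to 2235 at least 2-fold lower and 4038 to 4236 alike. With no filter, 7444 of 33830 genes were alike, since that setting tests more genes. Same-numbered libraries of the drugs did not deviate together (correlations of -0.0031, -0.0848 and -0.0078 over 10772 genes), and a fit with the replicate number as a block gave 5173 higher, 5202 lower, 1974 and 2204 at least 2-fold, and 4392 alike.

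Genes near 0 changed sign. With total reads alone, HDAC1 was at -0.0219 and MAP1LC3B at -0.0601 on the log2 scale. Leaving out 1 library, MAP1LC3B ran between -0.0465 (without romidepsin replicate 2) and 0.0842, and NUP62 between -0.0203 and 0.0085 (without romidepsin replicate 3). None of these was called under any setting. Of the 301 named genes, 7 changed in call or sign under some alternative, the others being HDAC8, CCL22, ANP32E and DUSP4. ANP32E was no longer called under 5 of them, with adjusted p-values of 0.0674 to 0.35. Medians of 4 of the 52 lists changed sign, those of the deacetylases, the cytokine receptor chain, cytotoxic granule and death receptor genes. The cause was not tested. Scaling by total reads alone shifted the median of all genes by -0.083. Depth limits what can be said of genes below about 1 CPM, and the strand of origin is unknown for genes that overlap.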
